A study of Oryza sativa with 6 samples.

Results

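The phenylpropanoid, lignin and flavonoid enzymes of rice panicles were followed in 6 RNA-seq libraries. Members were the genes whose name or description in the deposited table held one of the strings phenylalanine ammonia, 4-coumarate, chalcone, cinnamoyl, cinnamyl, caffeoyl, caffeic acid, laccase, flavonol synthase or dihydroflavonol, leaving out cytochromes P450, glucosyltransferases and polyketide synthase 1 (Os10g0484800). The rule found 152 of 39367 genes. It reads names and no measured values, so it also takes in genes whose name and description disagree. The libraries came from 3 panicle samples of the wild-type rice cultivar Nipponbare and 3 of CTB3-cr1, a line that the sample labels give as a CTB3 knockdown and the table's column headings as KO. All 6 samples had 1 day of a cold treatment called CS-PT, and the labels call the 3 of each genotype biological replicates. CTB3-cr1 is the only mutant line in the series, so CTB3 itself and any other difference between this line and Nipponbare cannot be told apart. The labels tie CTB3 to no gene identifier, so the level of the targeted gene was not checked. Uncooled panicles were not analysed here, and the values compare genotypes in the cold, not a response to it.

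Phenylpropanoid synthesis starts when phenylalanine ammonia-lyase (PAL) strips ammonia from phenylalanine to give cinnamic acid. After a hydroxylation by a P450, 4-coumarate:CoA ligase (4CL) makes the CoA ester from which lignin and flavonoids branch. On the lignin side, hydroxycinnamoyltransferases (HCT) and methyltransferases such as caffeoyl-CoA O-methyltransferase (CCoAOMT) decorate the ring, cinnamoyl-CoA reductase (CCR) and cinnamyl alcohol dehydrogenase (CAD) reduce the side chain to monolignols, and laccases oxidise monolignols in the cell wall. On the flavonoid side, chalcone synthase (CHS) and chalcone isomerase (CHI) build the skeleton, and flavonol synthase (FLS) and dihydroflavonol reductase (DFR) lead to flavonols and anthocyanins. In panicles these products stiffen hulls and vascular bundles, and enzymes related to 4CL, CHS and DFR make sporopollenin, the polymer of the pollen wall.

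Library totals ran from 14422565 to 16982031 counts. All 11 floral MADS-box genes used to check the tissue were expressed, at a summed level of 1019 to 1375 FPKM (counts scaled by gene length and library size) per library. CTB3-cr1 replicate 1 and Nipponbare replicate 2 lay at opposite ends of the first principal component, which took 39.6% of the variance, with scores of -44.83 and 58.13 against -21.39 to 17.55 in the other 4 libraries. What set these libraries apart was not tested, and in whole panicles fewer cells of a type and less RNA per cell cannot be told apart. The main counts are given with and without these libraries.

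Most of the tested members stood at lower values in CTB3-cr1, but none of them passed the main test. Of the 152 members, 82 had enough counts to be tested and 38 had no count in any library. In edgeR's quasi-likelihood test 0 of 82 tested members had an adjusted p under 0.05, against 0.0780% of all genes tested (0.0156% lower and 0.0624% higher), and the smallest adjusted p of a member was 0.382. An unadjusted p under 0.05 was reached by 16 members on the lower side (19.5% of those tested, background 3.60%) and by 0 on the higher side (background 1.66%). The log2 ratio of CTB3-cr1 to Nipponbare, as fitted by edgeR, was below 0 in 64 of the 82 (78.0%), against 50.5% of all genes, with a median of -0.39 against -0.0026. In 12 members it was at or below -1, 2-fold lower or more, and in 0 it was at or above 1. Every CTB3-cr1 library lay below every Nipponbare library in 11 members (13.4%, background 5.36%) and above in 2 (2.44%, background 5.11%). The members were proposed with earlier results of these data known, so these shares are descriptions of the list and not a test of it.

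The offset was smaller without CTB3-cr1 replicate 1 or Nipponbare replicate 2. The median log2 ratio of the tested members was -0.16 without CTB3-cr1 replicate 1, -0.24 without Nipponbare replicate 2 and -0.053 without both, when 48 of 83 tested members were below 0. It was -0.60 without CTB3-cr1 replicate 2, and without the other libraries it lay between -0.49 and -0.39. Members with an unadjusted p under 0.05 on the lower side in edgeR were 10.8%, 33.7% and 10.7% of those tested without CTB3-cr1 replicates 1, 2 and 3, where 2.61%, 4.61% and 2.35% of all genes met it in the same fits. Without Nipponbare replicates 1, 2 and 3 they were 20.2%, 11.0% and 22.6%, beside 4.47%, 1.82% and 4.77% of all genes, and without both libraries at the ends of the first component 8.43% beside 1.58%. The share over all genes thus moved with the left-out library too. Members whose CTB3-cr1 libraries all lay lower were 16.9%, 37.3% and 15.5% without CTB3-cr1 replicates 1, 2 and 3, beside 9.40%, 11.5% and 8.55% of all genes, and 25%, 13.4% and 31.0% without Nipponbare replicates 1, 2 and 3, beside 11.4%, 7.53% and 12.1%. Without both libraries they were 19.3%, beside 14.4% of all genes.

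**Figure D1:**
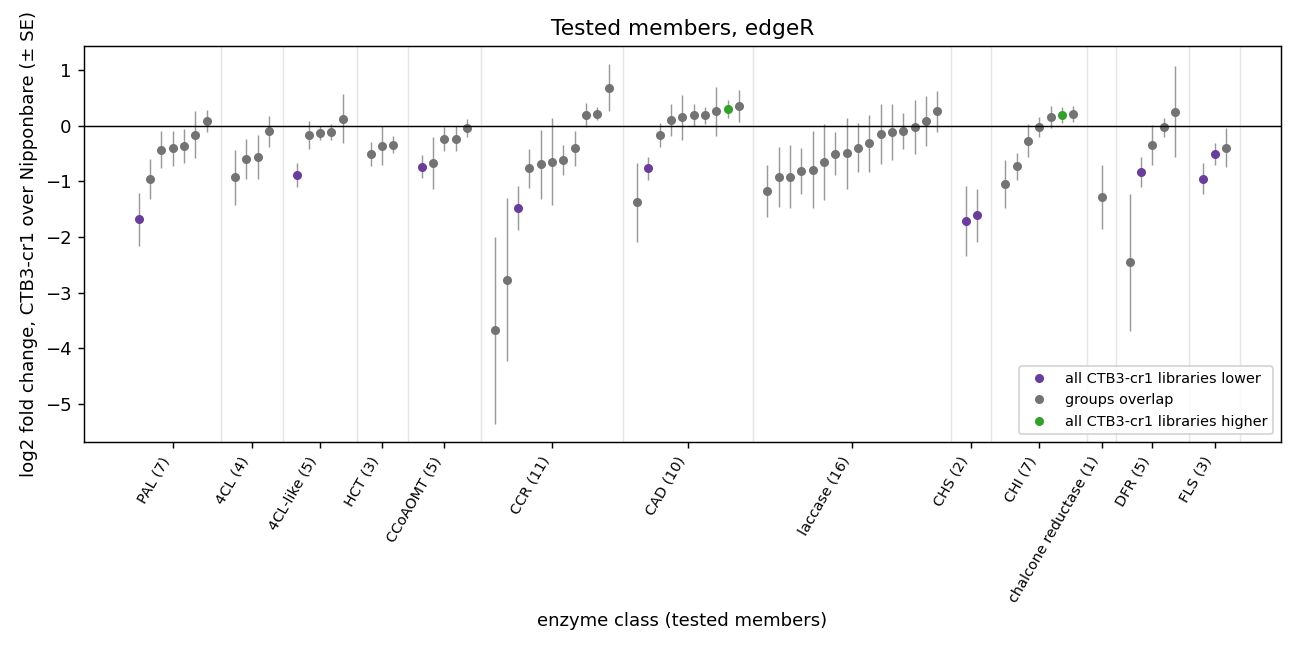
Log2 fold change of CTB3-cr1 over Nipponbare (y axis, points with SE bars from edgeR) for 79 of the tested members, ordered within enzyme class (x axis, number tested in brackets). Purple points mark the 10 members with all CTB3-cr1 libraries lower, green points the 2 with all higher, and most points of PAL, 4CL, laccase, CHS and FLS lie below 0 while those of CAD lie around it.

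The authors' deposited table called 4 members lower in CTB3-cr1 at an adjusted p under 0.05 and 0 higher, of 112 members with an adjusted p there. Over all genes it called 0.409% lower and 0.212% higher. A rerun of DESeq2 on the counts called the same 4, while edgeR, limma-voom and limma-trend on FPKM called 0. The values of 3 of these follow, in CPM (counts scaled by library size).

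SNL6 (Os01g0639200), a CCR-like gene whose loss suppresses the lesions that the immune regulator NH1 brings about, lies on chromosome 1 from 25640719 to 25647590 in the table's own coordinates, whose genome build the sources used here do not name. It stood at 61.9, 83.9 and 45.4 CPM in CTB3-cr1 and 104, 288 and 139 CPM in Nipponbare. The groups did not overlap, with means of 63.7 CPM ± 19.3 (SD, n = 3) and 177 CPM ± 97.9 (SD, n = 3), and Nipponbare replicate 2 was the highest library. Its log2 ratio was -1.47 ± 0.40 (SE), with an adjusted p of 0.692 in edgeR and 0.0201 in the authors' deposited table. PAL 07 (Os04g0518400) stood at 8.50, 12.3 and 7.71 CPM in CTB3-cr1 and 13.8, 53.7 and 24.1 CPM in Nipponbare, again with Nipponbare replicate 2 highest and no overlap. Its log2 ratio of -1.68 ± 0.48 (SE) was -0.99 without Nipponbare replicate 2. The adjusted p was 0.715 in edgeR and 0.0334 in the authors' deposited table. Acyl-Activating Enzyme 3 (Os04g0683700), a 4CL-like enzyme whose description names blast resistance, floret development and lignin, stood at 67.8, 64.6 and 77.8 CPM in CTB3-cr1 and 97.04, 174 and 118 CPM in Nipponbare, without overlap. Its log2 ratio was -0.89 ± 0.22 (SE), with an adjusted p of 0.591 in edgeR and 0.0367 in the authors' deposited table.

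SNL6, PAL 07 and Acyl-Activating Enzyme 3 each lost their DESeq2 call when CTB3-cr1 replicate 1, CTB3-cr1 replicate 3 or Nipponbare replicate 2 was absent (adjusted p from 0.159 to 0.726), and Acyl-Activating Enzyme 3 also without CTB3-cr1 replicate 2 (adjusted p = 0.158). Their edgeR log2 ratios moved by less than their SE without CTB3-cr1 replicates 1 and 3, to -1.44 and -1.27 for SNL6, -1.59 and -1.53 for PAL 07 and -0.85 and -0.96 for Acyl-Activating Enzyme 3. Without Nipponbare replicate 2 they were closer to 0, at -0.93, -0.99 and -0.62 in the same order. Leaving out CTB3-cr1 replicates 1, 2 and 3 in turn left DESeq2 with 1, 11 and 0 members lower, where it called 0.229%, 0.716% and 0.228% of all genes lower. Leaving out Nipponbare replicates 1, 2 and 3 left 9, 1 and 6 members, beside 0.792%, 0.173% and 0.818% of all genes. The 11 without CTB3-cr1 replicate 2 included LACCASE 3 (adjusted p = 0.0157), LACCASE 5 (adjusted p = 0.000579) and LACCASE 12 (adjusted p = 0.00310), named after their values were seen. In each of these laccases the left-out library was the highest of its genotype. LACCASE 3 (Os01g0827300) stood at 2.14, 18.05 and 5.20 CPM in CTB3-cr1 and 18.01, 9.05 and 12.7 CPM in Nipponbare. Its adjusted p was 0.996 in edgeR with all libraries.

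**Figure D2:**
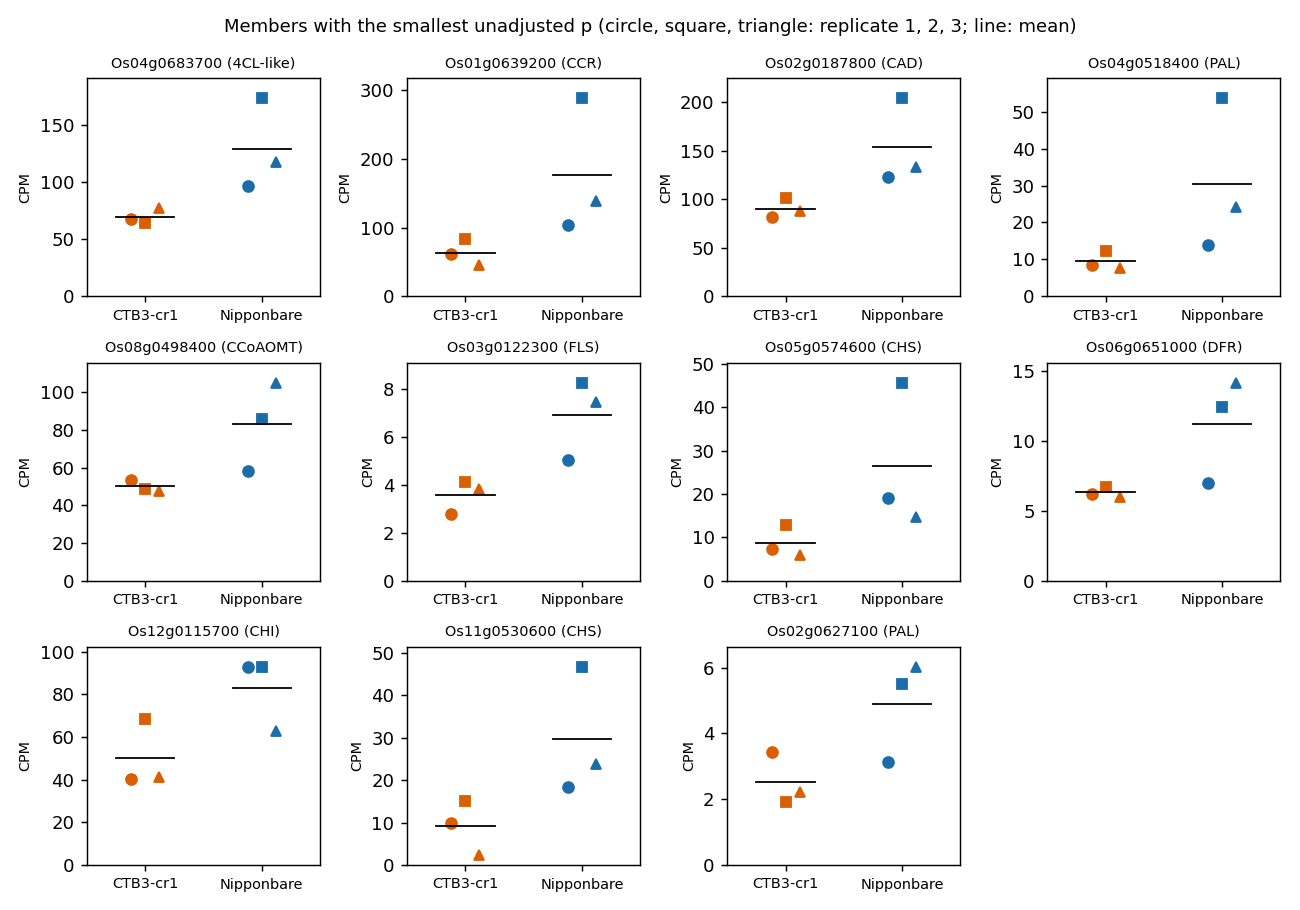
CPM (counts scaled by library size, y axis, starting at 0) in each library of 11 of the 12 members with the smallest unadjusted p in edgeR, with CTB3-cr1 in orange, Nipponbare in blue and the group mean as a line. The 11 Nipponbare means all lie above the CTB3-cr1 means, and Nipponbare replicate 2 (square) is the highest point in 7 panels.

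At the entry of the pathway, PAL transcripts were among the most abundant of all members. PAL 1 (Os02g0626100, chromosome 2 from 24973448 to 24977287) had the highest mean level of the 152 members, 492 FPKM over the 6 libraries, and made up 57.9% of the summed PAL level. It stood at 672, 1458 and 1095 CPM in CTB3-cr1 and 1408, 1758 and 1102 CPM in Nipponbare. CTB3-cr1 replicate 1 was the lowest library and Nipponbare replicate 2 the highest, and the other 4 lay together with the genotypes mixed. Its log2 ratio was -0.40 ± 0.31 (SE) (adjusted p = 0.996 in edgeR), -0.15 without CTB3-cr1 replicate 1 and 0.024 without that library and Nipponbare replicate 2. Its neighbour Os02g0626400, also a PAL, followed the same order of libraries at the extremes, with 306, 810.3 and 495 CPM in CTB3-cr1 and 667, 862 and 638 CPM in Nipponbare, and PAL 02 (Os04g0518100) stood at 103, 213 and 159 CPM in CTB3-cr1 and 247, 227 and 139 CPM in Nipponbare. Summed over the 12 PAL members, the level was 467, 1018 and 717 FPKM in CTB3-cr1 and 949, 1150.4 and 797 FPKM in Nipponbare.

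Some PAL members behaved differently. Os05g0427400 stood at 36.6, 60.7 and 36.7 CPM in CTB3-cr1 and 53.01, 21.6 and 74.8 CPM in Nipponbare, with its lowest value in Nipponbare replicate 2, where PAL 1 was highest. Os02g0627100, a weak copy in the cluster on chromosome 2 that the table also names PAL 1, stood at 3.44, 1.92 and 2.22 CPM in CTB3-cr1 and 3.12, 5.50 and 6.03 CPM in Nipponbare, a log2 ratio of -0.95 ± 0.36 (SE) with an adjusted p of 0.880 in edgeR. PAL 11 (Os05g0558900), described as similar to an Frsb protein and so uncertain as a lyase, had 0.085 ± 0.19 (SE). How reads were assigned is not stated in these sources, so their split among the neighbouring PAL copies is uncertain. In all, 6 of the 7 tested PAL genes were below 0 with a median of -0.40.

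**Figure D3:**
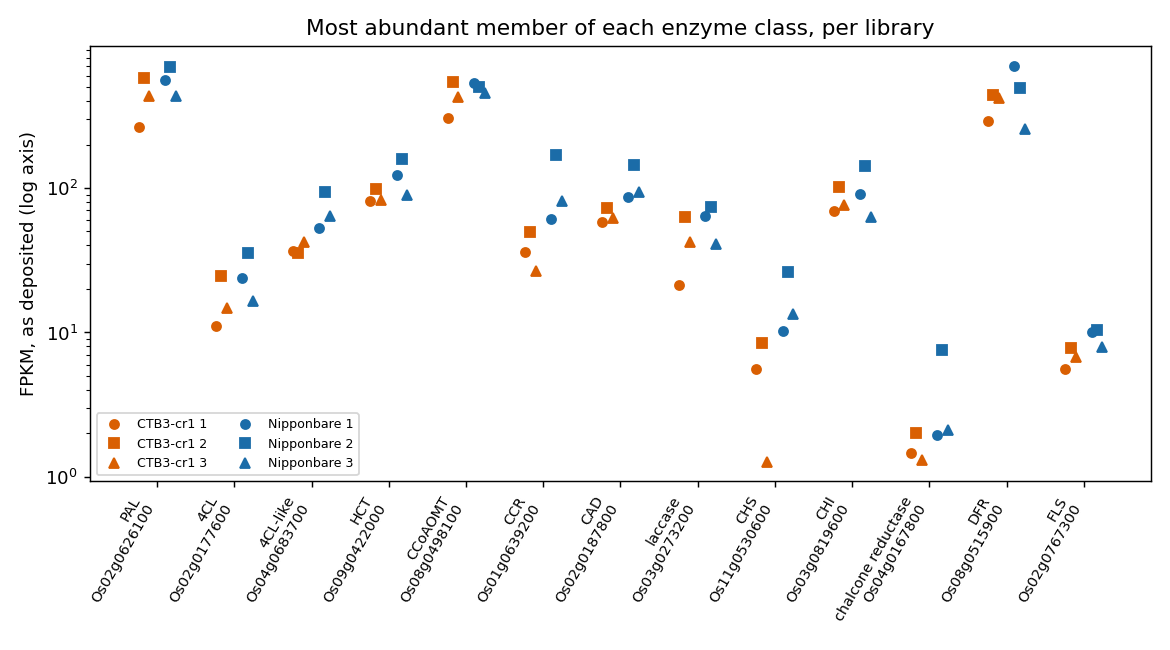
Deposited FPKM (y axis, log scale) in each library for the most abundant member of each enzyme class shown (x axis), with CTB3-cr1 in orange, Nipponbare in blue and a symbol for each replicate number. PAL 1, a caffeoyl-CoA methyltransferase and a DFR-like gene lead, and CTB3-cr1 replicate 1 (orange circle) is the lowest point for PAL, 4CL, HCT, CCoAOMT, laccase, CAD and FLS.

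Of the 5 genes named as 4CL, 4CL3 (Os02g0177600), assigned to lignin in the table, was the most abundant at 21.1 FPKM. It stood at 23.2, 50.4 and 30.6 CPM in CTB3-cr1 and 49.3, 74.1 and 34.4 CPM in Nipponbare, with overlapping groups and a log2 ratio of -0.60 ± 0.35 (SE) (adjusted p = 0.996 in edgeR). 4CL4 (Os06g0656500) reached 8.40 FPKM and 4CL5 and 4CL1 stayed at 1.69 and 0.477 FPKM. 4CL2, the gene tied to flavonoids, had 10, 5 and 7 counts in CTB3-cr1 and 3, 19 and 5 counts in Nipponbare and was too weak to test. All 4 tested 4CL genes were below 0, from -0.92 to -0.096. Apart from Acyl-Activating Enzyme 3, the 4CL-like acyl-CoA synthetases lay close to 0, between -0.17 and 0.13.

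Among the 11 hydroxycinnamoyltransferases, 3 were tested and all 3 lay below 0. HCT 3 (Os09g0422000), the most abundant at 105 FPKM, stood at 139.7, 168 and 143 CPM in CTB3-cr1 and 212, 274 and 155 CPM in Nipponbare, where Nipponbare replicate 3 overlapped with CTB3-cr1 replicate 2, and had a log2 ratio of -0.51 ± 0.21 (SE) with an adjusted p of 0.938 in edgeR. Hydroxycinnamoyltransferase 2 (Os02g0611800) reached a similar 102 FPKM and stood at 83.2, 203 and 182 CPM in CTB3-cr1 and 214, 249 and 137 CPM in Nipponbare, lowest in CTB3-cr1 replicate 1. Hydroxycinnamoyltransferase 1 (Os04g0500700) had a log2 ratio of -0.34 ± 0.15 (SE). The 6 others named for putrescine, agmatine, tryptamine or spermidine, which serve phenolamides, were untested, with at most 11 counts in all CTB3-cr1 libraries together and 27 in those of Nipponbare.

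CCoAOMT, which makes methoxyl groups of lignin, was strongly expressed. The caffeoyl-CoA methyltransferase Os08g0498100 had a mean of 459 FPKM, 69.2% of its class, and stood at 341, 595 and 472 CPM in CTB3-cr1 and 592, 556 and 509 CPM in Nipponbare. Only CTB3-cr1 replicate 1 stood apart, as the lowest, and the log2 ratio was -0.23 ± 0.21 (SE) (adjusted p = 0.996 in edgeR). Its neighbour Os08g0498400 (chromosome 8 from 24593142 to 24597525) showed another pattern, with 53.5, 48.9 and 47.6 CPM in CTB3-cr1 and 58.1, 85.7 and 105 CPM in Nipponbare. The CTB3-cr1 libraries of this gene kept within a narrow range below all Nipponbare libraries, and its log2 ratio was -0.73 ± 0.21 (SE) with an adjusted p of 0.715 in edgeR and 0.172 in the authors' deposited table. Here Nipponbare replicate 3, not replicate 2, was the highest library.

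Reduction to monolignols gave a mixed picture. GOLD HULL AND INTERNODE 2 (Os02g0187800, chromosome 2 from 4870151 to 4874038), the CAD whose loss colours hulls and stems in rice, was the most abundant CAD at 86.3 FPKM. It stood at 81.6, 102 and 88.3 CPM in CTB3-cr1 and 123, 204 and 133 CPM in Nipponbare, without overlap, and had a log2 ratio of -0.76 ± 0.21 (SE) with an adjusted p of 0.710 in edgeR and 0.0994 in the authors' deposited table. Of the 10 tested CAD genes 7 were above 0, and the weak CINNAMYL ALCOHOL DEHYDROGENASE 5 (Os08g0270400) was the lowest at -1.38 ± 0.71 (SE) on the log2 scale, from 0.649, 1.92 and 0.234 CPM in CTB3-cr1 and 1.46, 3.62 and 2.25 CPM in Nipponbare. FINE CULM 1 (Os04g0612700), a CAD needed for stem strength, stood at 41.1, 43.5 and 60.8 CPM in CTB3-cr1 and 64.9, 57.5 and 41.1 CPM in Nipponbare, a log2 ratio of -0.17 ± 0.22 (SE). Os03g0581100, named a cinnamoyl alcohol dehydrogenase, was 1 of the 2 members with all CTB3-cr1 libraries higher, at 24.9, 19.5 and 18.2 CPM in CTB3-cr1 and 16.4, 17.6 and 16.8 CPM in Nipponbare, with an adjusted p of 0.976 in edgeR. The class had a median of 0.17.

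CCR genes ranged from -3.68 to 0.69 with a median of -0.64 over 11 tested. CCR 20 (Os08g0441500), assigned to lignin in the table, stood at 77.4, 48.3 and 61.8 CPM in CTB3-cr1 and 56.1, 152 and 109.8 CPM in Nipponbare, with Nipponbare replicates 2 and 3 high and replicate 1 within the range of CTB3-cr1 (log2 ratio -0.76 ± 0.35 (SE), adjusted p = 0.953 in edgeR). CCR 21 (Os02g0180700) lay on the other side, at 0.22 ± 0.12 (SE). The widest fold changes belonged to genes with their reads in few libraries. Os06g0623200 had 1, 68 and 0 counts in CTB3-cr1 and 3, 480 and 340 counts in Nipponbare, so 2 Nipponbare libraries and 1 CTB3-cr1 library carried nearly all of its reads, and CCR 10 (Os02g0811800) had 7, 19 and 14 counts in CTB3-cr1 and 4, 4 and 274 counts in Nipponbare, mostly in Nipponbare replicate 3. Their log2 ratios of -3.68 ± 1.68 (SE) and -2.77 ± 1.46 (SE) had adjusted p of 0.953 and 0.979 in edgeR, and both genes were named after their values were seen.

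Laccases, the copper oxidases at the end of the lignin route, stood low in CTB3-cr1 replicate 1. LACCASE 11 (Os03g0273200) led with 50.8 FPKM and stood at 47.8, 141 and 94.3 CPM in CTB3-cr1 and 142, 165 and 91.8 CPM in Nipponbare, a log2 ratio of -0.50 ± 0.39 (SE) (adjusted p = 0.996 in edgeR) and of 0.0038 without CTB3-cr1 replicate 1 and Nipponbare replicate 2. LACCASE 5 (Os01g0842500) stood at 10.6, 61.3 and 24.9 CPM in CTB3-cr1 and 66.1, 67.3 and 49.5 CPM in Nipponbare, and its neighbour LACCASE 4 (Os01g0842400) at 5.58, 26.4 and 12.7 CPM in CTB3-cr1 and 28.9, 41.3 and 14.2 CPM in Nipponbare. Both were lowest in CTB3-cr1 replicate 1, and CTB3-cr1 replicate 2 lay within the Nipponbare range. LACCASE 12 (Os03g0297900) had the lowest log2 ratio of the class, -1.17 ± 0.46 (SE) (adjusted p = 0.911 in edgeR), while LACCASE 21 (Os11g0108700) had 0.26 ± 0.37 (SE). Of 16 tested laccases 14 were below 0, and 11 had their lowest value in CTB3-cr1 replicate 1. Summed over the class, the level was 57.5, 180.2 and 110.4 FPKM in CTB3-cr1 and 179, 199 and 110.2 FPKM in Nipponbare.

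Flavonoid entry was weakly expressed. Of 24 genes matched through chalcone synthase, 19 had no count, and 2 were tested. CHALCONE SYNTHASE (Os11g0530600, chromosome 11 from 19277597 to 19281006), the only tested gene described as one, stood at 9.93, 15.1 and 2.28 CPM in CTB3-cr1 and 18.3, 46.8 and 23.9 CPM in Nipponbare. All CTB3-cr1 libraries were lower, CTB3-cr1 replicate 3 was the lowest and Nipponbare replicate 2 the highest. Its log2 ratio was -1.71 ± 0.63 (SE) with an adjusted p of 0.856 in edgeR and 0.196 in the authors' deposited table. The log2 ratio was -1.23 without CTB3-cr1 replicate 3, -1.22 without Nipponbare replicate 2 and -1.29 without CTB3-cr1 replicate 1 and Nipponbare replicate 2. The second, Os05g0574600, carries the name but is described as a 3-ketoacyl-CoA synthase, an enzyme of very long chain fatty acids, and stood at 7.33, 12.8 and 5.84 CPM in CTB3-cr1 and 19.03, 45.7 and 14.7 CPM in Nipponbare, without overlap (log2 ratio -1.61 ± 0.48 (SE), adjusted p = 0.751 in edgeR). Without Nipponbare replicate 2 its log2 ratio was -0.96.

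Among CHI genes, GOLD HULL AND INTERNODE 1 (Os03g0819600), the isomerase of rice hull flavonoids, was the most abundant at 91.04 FPKM. It stood at 62.1, 90.3 and 68.1 CPM in CTB3-cr1 and 81.4, 128 and 56.4 CPM in Nipponbare, with overlapping groups and a log2 ratio of -0.27 ± 0.30 (SE), which was 0.094 without Nipponbare replicate 2. Os12g0115700 on chromosome 12 stood at 40.4, 68.3 and 41.2 CPM in CTB3-cr1 and 92.97, 92.9 and 62.8 CPM in Nipponbare, and Os11g0116300 on chromosome 11 at 40.8, 52.2 and 17.3 CPM in CTB3-cr1 and 99.6, 82.3 and 45.6 CPM in Nipponbare. In both, CTB3-cr1 replicate 2 was the highest of its genotype and overlapped only with Nipponbare replicate 3. Their log2 ratios were -0.73 ± 0.25 (SE) and -1.04 ± 0.43 (SE), with adjusted p of 0.806 and 0.927 in edgeR. The ends of chromosomes 11 and 12 carry duplicated genes, so reads of these copies may have been shared between them. The other 4 genes with a CHI domain lay between -0.018 and 0.22, and Os06g0203600 was the second member with all CTB3-cr1 libraries higher, at 15.5, 15.9 and 15.3 CPM in CTB3-cr1 and 12.03, 14.9 and 13.9 CPM in Nipponbare. A weakly expressed relative of chalcone reductase, Os04g0167800, stood at 1.75, 2.42 and 1.58 CPM in CTB3-cr1 and 2.35, 9.12 and 2.54 CPM in Nipponbare, highest in Nipponbare replicate 2 (log2 ratio -1.28 ± 0.57 (SE), adjusted p = 0.953 in edgeR). Without that library its log2 ratio was -0.35.

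The 3 genes named flavonol synthase were weak. In 2 of them every CTB3-cr1 library lay below every Nipponbare library, which held for 5.36% of all genes tested. Os02g0767300 stood at 6.94, 9.62 and 8.41 CPM in CTB3-cr1 and 12.5, 12.96 and 9.87 CPM in Nipponbare, and Os03g0122300, described as like flavanone 3-hydroxylase, at 2.79, 4.09 and 3.80 CPM in CTB3-cr1 and 5.03, 8.25 and 7.45 CPM in Nipponbare. Their log2 ratios were -0.50 ± 0.20 (SE) and -0.95 ± 0.28 (SE), with adjusted p of 0.916 and 0.723 in edgeR. Among genes named after DFR, Os08g0515900 was the most abundant, at 434 FPKM and 78.1% of the class. It stood at 375, 571 and 541 CPM in CTB3-cr1 and 908, 643 and 333 CPM in Nipponbare, where Nipponbare replicates 1 and 3 were the highest and the lowest of the 6, and had a log2 ratio of -0.34 ± 0.35 (SE). That value was 0.024 without Nipponbare replicate 1. RED PERICARP AND SEED COAT (Os01g0633500), the DFR of rice grain pigment, had 0, 1 and 0 counts in CTB3-cr1 and 0, 2 and 0 counts in Nipponbare. Os06g0651000, named for both DFR and a reductase of the fungal HC-toxin, stood at 6.23, 6.70 and 6.02 CPM in CTB3-cr1 and 6.9997, 12.5 and 14.2 CPM in Nipponbare, without overlap (log2 ratio -0.83 ± 0.28 (SE), adjusted p = 0.794 in edgeR). Os07g0602000, which carries the same names, had 3, 31 and 0 counts in CTB3-cr1 and 14, 109 and 50 counts in Nipponbare, with an adjusted p of 0.976 in edgeR.

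Tetraketide alpha-pyrone reductase 1 (Os09g0493500), a DFR relative that acts in sporopollenin synthesis, was lowest in Nipponbare replicate 2, where PAL 1 was highest. It stood at 434, 515 and 359 CPM in CTB3-cr1 and 697, 34.4 and 365 CPM in Nipponbare. Nipponbare replicate 2 thus had far less of it than any other library, although that library was the highest for 40 of the 82 tested members (48.8%, background 22.0%). Some other members were also lowest in that library, among them the PAL gene Os05g0427400 and the CAD gene Os01g0528800. For tetraketide alpha-pyrone reductase 1 the sign of the ratio rested on that library. The log2 ratio was 0.25 ± 0.82 (SE) with all libraries and -0.28 without Nipponbare replicate 2 (adjusted p = 0.996 in edgeR with all libraries). Polyketide synthase 1 (Os10g0484800), which precedes the reductase in that route, had 529.5, 707 and 483 CPM in CTB3-cr1 and 1109, 1372 and 952 CPM in Nipponbare, and the tapetum regulator ETERNAL TAPETUM 1 had 36.7, 41.7 and 35.4 CPM in CTB3-cr1 and 77.7, 177 and 71.3 CPM in Nipponbare, both with Nipponbare replicate 2 highest. The 11 tapetum markers summed to 1014, 1521 and 974 FPKM in CTB3-cr1 and 2182, 4040.1 and 2354 FPKM in Nipponbare, none of them at 0. A log2 ratio below 0 was found in 9 of the 11 (background 50.5%). Of these 11 markers 7 had an unadjusted p under 0.05 in edgeR, all lower (background 3.60%). The authors' deposited table called 4 lower (background 0.409%), while edgeR called 0 after adjustment. The lowest log2 ratios were -2.63 ± 0.84 (SE) for anther specific protein 6 (Os11g0582500), -2.07 ± 0.58 (SE) for cysteine protease 1 (Os04g0670500) and -2.06 ± 0.38 (SE) for RAFTIN1 (Os08g0496800). Not all markers fell like ETERNAL TAPETUM 1, which had a log2 ratio of -1.52 ± 0.35 (SE). Undeveloped tapetum 1 (Os07g0549600) had -0.067 ± 0.19 (SE) and tapetum degeneration retardation (Os02g0120500) had -0.21 ± 0.20 (SE). Persistent tapetal cell 1 (Os09g0449000) had 0.028 ± 0.43 (SE) and TDR interacting protein 2 (Os01g0293100) had 0.52 ± 0.37 (SE). The part of tapetum RNA in the differences of the members was not tested.

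**Figure D4:**
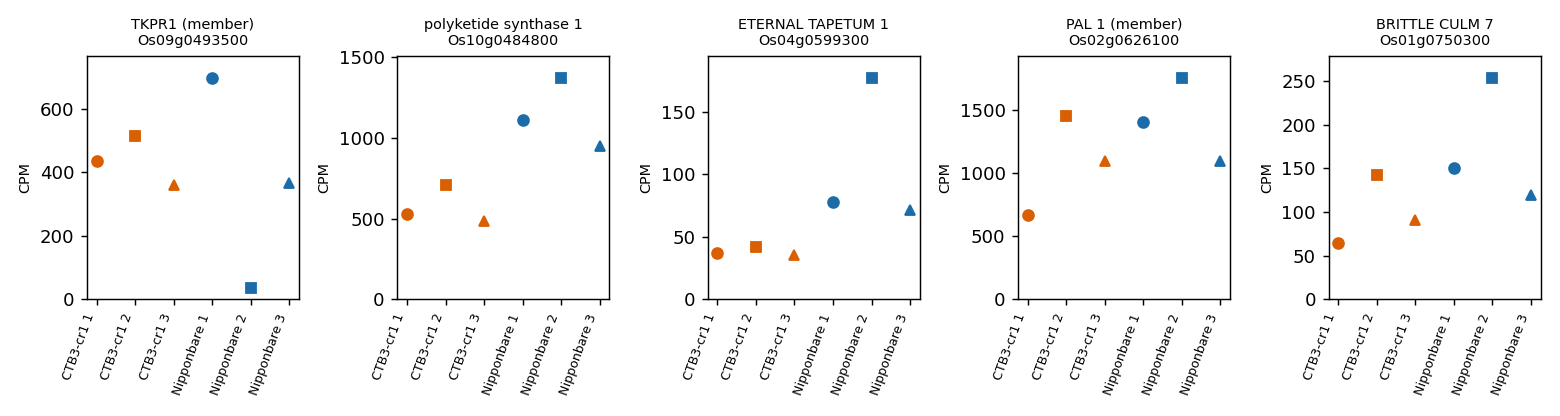
CPM (y axis, starting at 0) in each library (x axis) for the members tetraketide alpha-pyrone reductase 1 (TKPR1) and PAL 1 and for 3 genes outside the list, polyketide synthase 1, ETERNAL TAPETUM 1 and the secondary wall cellulose synthase BRITTLE CULM 7. Nipponbare replicate 2 (blue square) is the lowest library for TKPR1 and the highest for the other 4 genes.

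Values were also set side by side by library. For each tested member, log2(CPM + 1) was set against its mean over the 6 libraries, and the median of these deviations was taken per class. Over all 82 tested members it was -0.36, 0.06 and -0.17 in CTB3-cr1 replicates 1, 2 and 3 and 0.061, 0.43 and 0.015 in Nipponbare replicates 1, 2 and 3, while over all genes it stayed between -0.0053 and 0.0034. For laccases it was -0.90, 0.44 and -0.17 in CTB3-cr1 replicates 1, 2 and 3 and 0.41, 0.64 and -0.30 in Nipponbare replicates 1, 2 and 3, and for PAL -0.74, 0.29 and -0.25 in CTB3-cr1 replicates 1, 2 and 3 and 0.16, 0.53 and 0.21 in Nipponbare replicates 1, 2 and 3. The medians of CAD and CHI lay between -0.081 and 0.11 in all libraries, over members that went both ways, with GOLD HULL AND INTERNODE 2 at -0.76 and the CHI genes Os12g0115700 and Os11g0116300 at -0.73 and -1.04 between genotypes. Summed over CHI, the level was 188, 249.5 and 167 FPKM in CTB3-cr1 and 310.0, 339 and 199 FPKM in Nipponbare. CTB3-cr1 replicate 1 was the lowest library for 30 of the tested members (36.6%, background 18.9%) and CTB3-cr1 replicate 3 for 18 (22.0%, background 11.1%). In CTB3-cr1 replicate 2 the medians of PAL, 4CL and laccase were above 0, from 0.19 to 0.44, and within the range of the Nipponbare libraries.

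**Figure D5:**
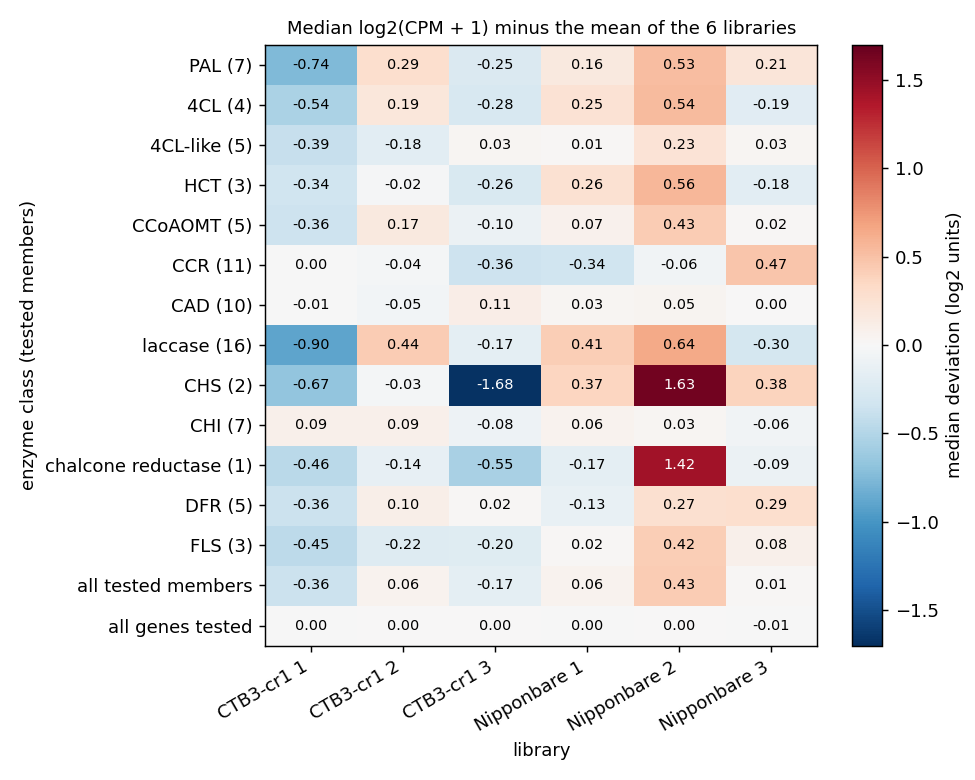
Median deviation of log2(CPM + 1) from the mean of the 6 libraries (colour and number, log2 units) for the tested members of each enzyme class shown (rows, number tested in brackets) in each library (columns), with all tested members and all genes tested in the last rows. PAL, 4CL and laccase are lowest in CTB3-cr1 replicate 1 and highest in Nipponbare replicate 2, while the medians of CAD and CHI, whose members go both ways, stay near 0.

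Genes of neighbouring steps were compared through lists outside the members, and 0 of their genes passed in edgeR after adjustment. The authors' deposited table called 1 gene of the flavonoid list higher and the tapetum markers given above lower. The 3 cellulose synthases of the secondary wall, the layer that lignin fills, had log2 ratios of -0.82 ± 0.36 (SE) for BRITTLE CULM 7 (Os01g0750300), -1.05 ± 0.47 (SE) for BRITTLE CULM 6 (Os09g0422500) and -1.02 ± 0.40 (SE) for CELLULOSE SYNTHASE A7 (Os10g0467800). BRITTLE CULM 7 stood at 64.8, 142 and 90.5 CPM in CTB3-cr1 and 151, 253 and 119.6 CPM in Nipponbare, with CTB3-cr1 replicate 1 lowest and Nipponbare replicate 2 highest, as for PAL 1. Of 12 tested P450 genes of the pathway 11 were below 0 with a median of -0.43. In edgeR 2 had an unadjusted p under 0.05, both lower (background 3.60%). These were Os03g0367101, named P-450 75A11, with -1.02 ± 0.26 (SE), and coniferaldehyde 5-hydroxylase 1 (Os10g0512400), which leads to syringyl lignin, with -1.75 ± 0.67 (SE). Of the other P450 genes, cinnamate 4-hydroxylase 2 (Os05g0320700) had -0.18 ± 0.34 (SE). The p-coumaroyl ester 3-hydroxylase (Os05g0494000), an earlier lignin step, had 0.09 ± 0.12 (SE), and flavone synthase II (Os04g0101400) had -0.58 ± 0.39 (SE). The 29 tested genes of the shikimate route and of aromatic amino acids, which supply phenylalanine, had a median of 0.013, with 14 below 0 and 0 with an unadjusted p under 0.05. The other flavonoid steps, 12 tested genes matched by words in their names or descriptions, had a median of 0.013, with 6 below 0. In edgeR 2 had an unadjusted p under 0.05, 1 lower and 1 higher (background 3.60% and 1.66%). The lower one was BROWN PERICARP AND SEED COAT (Os07g0211500), with -2.87 ± 0.90 (SE) and an adjusted p of 0.768 in edgeR. It stood at 0.065, 0.558 and 1.46 CPM in CTB3-cr1 and 2.61, 10.2 and 2.84 CPM in Nipponbare. The gene of the flavonoid list higher in the authors' deposited table was Os01g0106400, which entered the list through a description as similar to an isoflavone reductase. It stood at 66.01, 57.3 and 84.6 CPM in CTB3-cr1 and 44.4, 42.6 and 33.7 CPM in Nipponbare, with an adjusted p of 0.492 in edgeR. None of the 9 genes named dirigent, which guide the coupling of monolignols, was expressed enough to test, the highest having 48 counts over all 6 libraries. The 21 genes matched through chlorophyll binding in their names or descriptions, mostly antenna proteins of green tissue, summed to 2262, 2511 and 2081 FPKM in CTB3-cr1 and 2039.5, 4103 and 2159 FPKM in Nipponbare, and their part in the differences of the members was not tested.

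The 70 members left untested were close to silent in these panicles. Apart from the 38 without a count, 32 had between 1 and 58 counts over all libraries. They included 22 of the chalcone synthase class, 13 laccases, 8 hydroxycinnamoyltransferases, 6 CAD and 5 PAL genes. A difference in them was not detectable at this depth.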

How the data were processed

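Per the labels' protocols, total RNA of panicles was made into libraries with a NEBNext Ultra RNA kit and sequenced on an Illumina NovaSeq. Per the submitters' processing notes, fastp 0.19.7, HISAT2 and DESeq2 were used, and the build, annotation, counter and strand setting were not given in the sources used here. Raw counts and FPKM per library were deposited in 1 table, together with, per the file headers, the authors' p-values, log2 fold changes and a normalised signal averaged per group. Each FPKM equalled count over length and a library total that was 0.976 to 1.06 times the count sum. Of 39369 lines 2 had no gene identifier and were left out, at most 0.000478% of a library's counts.

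Counts were tested with edgeR 4.0.16 in R 4.3.3 (filterByExpr, TMM, quasi-likelihood F test, Benjamini-Hochberg over 25636 genes, threshold 0.05). SE is the log2 ratio over the square root of F. CPM uses TMM-scaled totals. Alternatives were DESeq2 1.42.0, limma-voom and limma-trend on FPKM (limma 3.58.1), other scalings and filters, the replicate block and left-out libraries; leaving out CTB3-cr1 replicate 1 with Nipponbare replicate 2, DESeq2 with left-out libraries, and the counts of members in 1 direction were chosen after seeing the data. The code was tested on simulated data. Members and lists were chosen with earlier results of these data known, and splitting hydroxycinnamoyltransferases, 4CL-like genes and chalcone reductases into classes of their own followed a look at the names. Full values were given for the most abundant member of each class, members called by edgeR or the authors, the 12 with the smallest p, the 4 most abundant and Os09g0493500; other genes were named after their values were seen. An enzyme class of 6 members, 1 of the 4 lower in the authors' table among them, stayed in the counts and is not reported here by name or value. No pair of replicates agreed within sampling noise.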

Additional observations from a re-analysis of the deposited data

How the results depend on the processing

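Over all genes edgeR called 20, DESeq2 202, the fit with the replicate block 4, and the fit without CTB3-cr1 replicate 1 and Nipponbare replicate 2 called 2. Leaving out 1 library gave 4 to 16 calls. Members called numbered 0 in edgeR under each scaling, filter, block and left-out library, in limma-voom and on FPKM, where between 692 and 1971 genes had an unadjusted p under 0.05, and 4, all lower, in DESeq2. The DESeq2 count of 4 ranged from 0 to 11 with 1 library left out and was 1 without both named libraries. Leaving out 1 library moved the members' median of -0.39 to between -0.60 and -0.16. It was -0.053 without both libraries and -0.14 on log2(FPKM + 1) without a filter, where 114 members, many of them weak, were tested. Members whose groups did not overlap numbered 13, 14 to 36 without 1 library and 20 without both, and those lower in CTB3-cr1 11, 11 to 31 and 16. Over all genes 5.11% were higher without overlap with all libraries. That higher share was not counted with libraries left out, so the counts in both directions have no background there. The share of all genes lower without overlap also rose with fewer libraries. It was 5.36%, 7.53% to 12.1% without 1 library and 14.4% without both. Members lower at an unadjusted p under 0.05 numbered 16, 9 to 28 and 7, and 21 with the replicate block. Over all genes the share lower was 3.60%, 1.82% to 4.77% and 1.58% in the first 3 of these settings. For the block the share lower was not counted over all genes. In either direction 1476 genes had such a p with the block, against 1347 in the main fit. Of 23 named members, 4 gained a call in DESeq2, and the sign turned for 5. Without both libraries the log2 ratio went to 0.024 for Os02g0626100, 0.0038 for Os03g0273200, 0.20 for Os03g0819600 and -0.28 for Os09g0493500, without Nipponbare replicate 2 to 0.094 for Os03g0819600 and -0.28 for Os09g0493500, and without Nipponbare replicate 1 to 0.024 for Os08g0515900 (with 1 library left out -0.69 to -0.15, -0.91 to -0.17, -0.49 to 0.094, -0.63 to 0.024 and -0.28 to 1.13 for Os02g0626100, Os03g0273200, Os03g0819600, Os08g0515900 and Os09g0493500). The cause of these shifts was not tested. Libraries sharing a replicate number did not all deviate together (correlations of -0.32, 0.38 and -0.11 for numbers 1, 2 and 3). Libraries of the 2 genotypes with unlike numbers had correlations from -0.45 to 0.53. The replicate block, under which members called stayed at 0, is not a pairing. Depth limits the 70 untested members.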
